A study of Homo sapiens with 6 samples.

Results

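BCR-ABL1 is the fusion tyrosine kinase of chronic myeloid leukaemia, and the genes described here are its 2 fusion partners, ABL1 and BCR, together with the adaptor proteins GRB2, GAB2, SOS1, CRKL and CRK, the docking protein DOK1, the phosphatase INPP5D and the kinase LYN. They were listed by name, and each was read from the probe set that the platform annotation pairs with its symbol (the one with the highest mean where there are several). Of the 10 genes 9 were found, among 17687 distinct gene symbols in the table, and each of the 9 had a single probe set. No probe set carried the symbol CRK in the annotation used here, so CRK has no value, and 3739 probe sets were unnamed.

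RNA came from K562, an established erythroleukaemia line derived from a patient with chronic myeloid leukaemia and labelled as bone marrow. One group of 3 arrays held control vector cells, and the other group of 3 held cells given a miR-543 vector, in which the labels call this microRNA overexpressed. Both groups share the same cells and the BCR-ABL1 fusion, and the labels give no promoter, dose, time or clone for either vector. Nothing in the labels ties a replicate to a culture of its own, so the spread behind every p-value here is that between arrays and may be technical.

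In the fusion the first part of BCR is joined to nearly all of ABL1. The coiled coil of BCR brings the kinase into oligomers, and the kinase then phosphorylates itself and its partners. A phosphotyrosine in the BCR part docks GRB2, which carries SOS1 towards RAS and GAB2 towards PI3 kinase and the phosphatase SHP2. CRKL binds proline-rich stretches of ABL1 and is among the most heavily phosphorylated proteins of chronic myeloid leukaemia cells, while DOK1 and INPP5D restrain the signal. The fusion gene is transcribed from the BCR promoter. An array summary of BCR or of ABL1 joins probes of one gene, so mRNA of the fusion and mRNA of the unfused gene cannot be told apart in these values. Phosphorylation and protein were not measured.

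The microRNA that separates the groups is shown first, since its seed (bases 2 to 8, in capitals) is the part that pairs with target mRNAs. The mature sequence is that of RefSeq on GRCh38.p14, chr14:101032033-101032054, plus strand, 22 bases long, and 0 other mature human microRNAs of the 2545 in that table share the seed.

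hsa-miR-543: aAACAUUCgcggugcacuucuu

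A promoter window of each fusion partner is shown, because the BCR promoter drives the fusion. The ABL1 window belongs to the start listed for that gene, and other starts of ABL1 were not examined. That of INPP5D is added as a blood cell gene for contrast. Each is the 250 bases before the RefSeq start on GRCh38.p14, plus strand, with every match of GGGCGG (the GC box, read on both strands as GGGCGG or CCGCCC) or of AGGAAGT (an ETS type sequence, or ACTTCCT on the other strand) in capitals. They lie at chr22:23180259-23180508 for BCR, chr9:130835004-130835253 for ABL1 and chr2:233060092-233060341 for INPP5D.

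BCR: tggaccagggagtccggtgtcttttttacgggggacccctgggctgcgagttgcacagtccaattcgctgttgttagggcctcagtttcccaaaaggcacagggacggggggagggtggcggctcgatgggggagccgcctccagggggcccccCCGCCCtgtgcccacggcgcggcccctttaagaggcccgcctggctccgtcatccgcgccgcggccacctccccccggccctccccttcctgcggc

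ABL1: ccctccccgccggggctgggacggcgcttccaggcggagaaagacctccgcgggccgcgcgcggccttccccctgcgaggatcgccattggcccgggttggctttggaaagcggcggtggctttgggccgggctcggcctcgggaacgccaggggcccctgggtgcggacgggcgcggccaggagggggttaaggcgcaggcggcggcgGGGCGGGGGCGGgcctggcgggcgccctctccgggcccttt

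INPP5D: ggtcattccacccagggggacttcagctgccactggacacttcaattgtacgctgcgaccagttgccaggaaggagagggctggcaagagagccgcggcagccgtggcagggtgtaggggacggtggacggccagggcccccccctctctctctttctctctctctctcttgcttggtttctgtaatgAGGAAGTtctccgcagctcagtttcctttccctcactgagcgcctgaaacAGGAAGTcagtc

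GGGCGG occurred 1 time in the BCR window and 2 times, side by side, in that of ABL1, and AGGAAGT occurred 2 times in that of INPP5D. Windows in the RefSeq table covered 9 of the 10 genes (12 windows), and GGGCGG was found for 7 of these genes: ABL1, BCR, CRK, DOK1, GAB2, GRB2 and SOS1. Counted by window, GGGCGG stood in 8 of these 12 and in 42.6% of all 35116 windows of that length, and AGGAAGT stood in 1 of the 12 (INPP5D) and in 7.01% of all. A match describes the letters and is not evidence of a bound factor.

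None of the 9 measured genes passed the test between the vectors. The test was limma over all 21448 probe sets with Benjamini-Hochberg adjustment, and an adjusted p under 0.05 made a call. Of all probe sets 0.569% were called, so 0 of 9 is close to that background, and the adjusted p-values of the 9 genes ran from 0.423 for ABL1 to 0.853 for SOS1. At an unadjusted p under 0.05 the count was 1 of 9 (ABL1, higher), beside 10.6% of all probe sets in either direction and 5.40% higher. Changes below are log2 signal with the miR-543 vector minus log2 signal with the control vector. They ran from -0.34 for GAB2 to 0.41 for BCR, 7 of the 9 lay above 0, and the median was 0.18, beside 52.3% above 0 and a median of 0.01 over all probe sets.

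**Figure D1:**
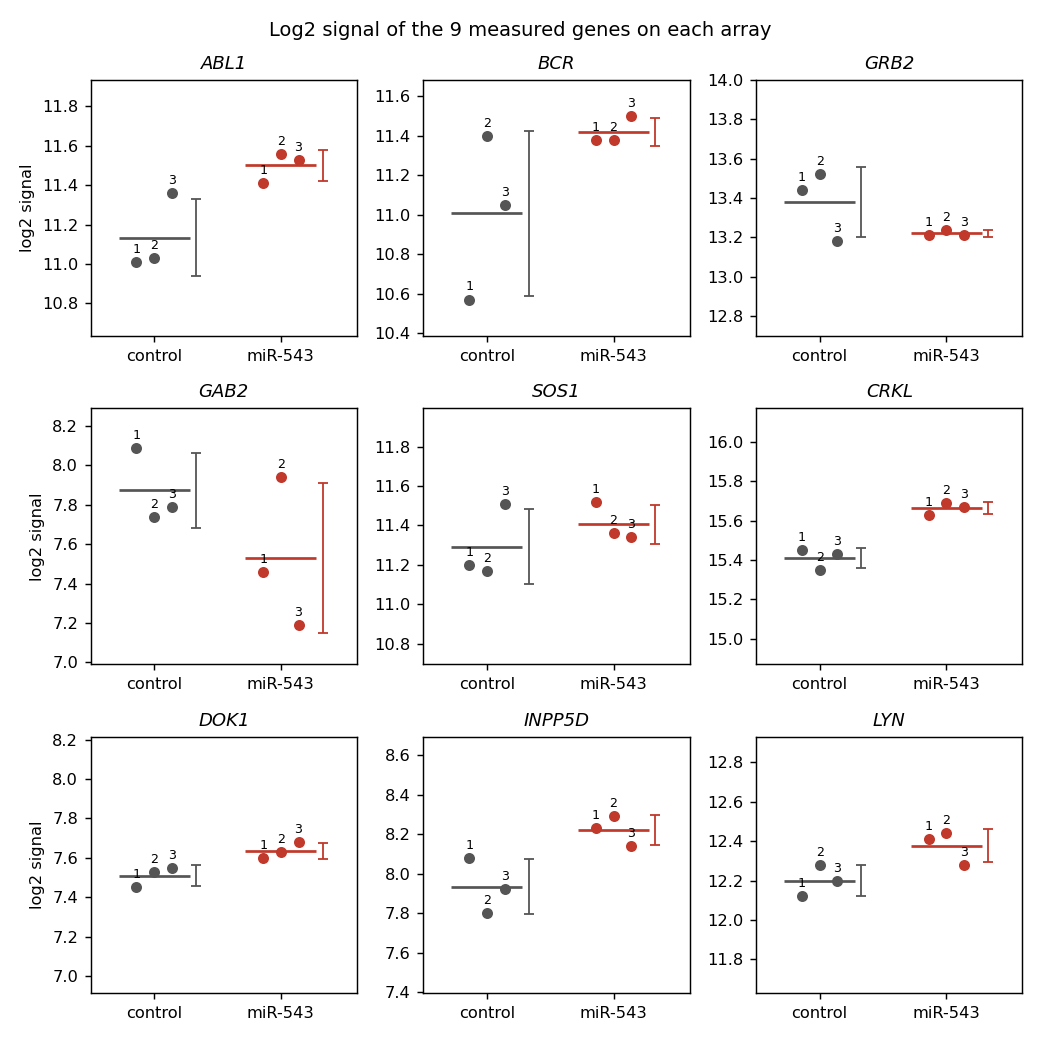
Log2 signal (y axis, each panel spanning the same number of log2 units) of each measured gene on the 3 control vector arrays (grey) and the 3 miR-543 vector arrays (red). Numbers are replicate numbers, lines are means and bars are SD. The groups do not overlap for ABL1, CRKL, DOK1 and INPP5D, while the control arrays of BCR are spread from 10.57 to 11.40.

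The fusion partners had the highest changes of the 9 genes. ABL1 (TC0900008969.hg.1, chromosome 9), the tyrosine kinase, read 11.01, 11.03 and 11.36 on control replicates 1, 2 and 3, and 11.41, 11.56 and 11.53 on miR-543 replicates 1, 2 and 3. All miR-543 arrays lay above all control arrays, the nearest pair being control replicate 3 and miR-543 replicate 1. The means were 11.13 ± 0.20 and 11.50 ± 0.079 (SD, n = 3), a log2 change of 0.37 (SE 0.15, 95% interval 0.035 to 0.70), or 1.29-fold. The limma adjusted p was 0.423 and a two-sided exact permutation test gave p = 0.1, its lowest possible value in a design of 3 against 3.

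BCR (TC2200006833.hg.1, chromosome 22), which in its unfused form regulates small GTPases, read 10.57, 11.40 and 11.05 on control replicates 1 to 3 and 11.38, 11.38 and 11.50 on miR-543 replicates 1 to 3. The miR-543 arrays lay close together, control replicate 1 stood low, and control replicate 2 lay within the range of the miR-543 arrays, so the groups overlapped. The difference was 0.41 log2 units (SE 0.20, 95% interval -0.029 to 0.86), or 1.33-fold, with a limma adjusted p of 0.511. Without control replicate 1 it was 0.20, and without control replicate 2 it was 0.61, and BCR was not called in either case (limma adjusted p = 0.868 and 0.332).

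Whether the partners changed unequally was asked with the difference ABL1 minus BCR within each array, which is a contrast of changes and not a ratio of transcript levels. It was 0.44, -0.37 and 0.31 on the control arrays and 0.03, 0.18 and 0.03 on the miR-543 arrays. The control arrays enclosed the miR-543 arrays. The difference between the groups was -0.047 (exact permutation p = 0.9), beside SDs of 0.44 and 0.087. Its sign depended on single control arrays, with 0.11 without control replicate 1 and 0.045 without control replicate 3. Without control replicate 2 it was -0.295 (exact permutation p = 0.1, the lowest value possible with the arrays left). The control arrays left (0.44 and 0.31) then lay above all miR-543 arrays.

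**Figure D2:**
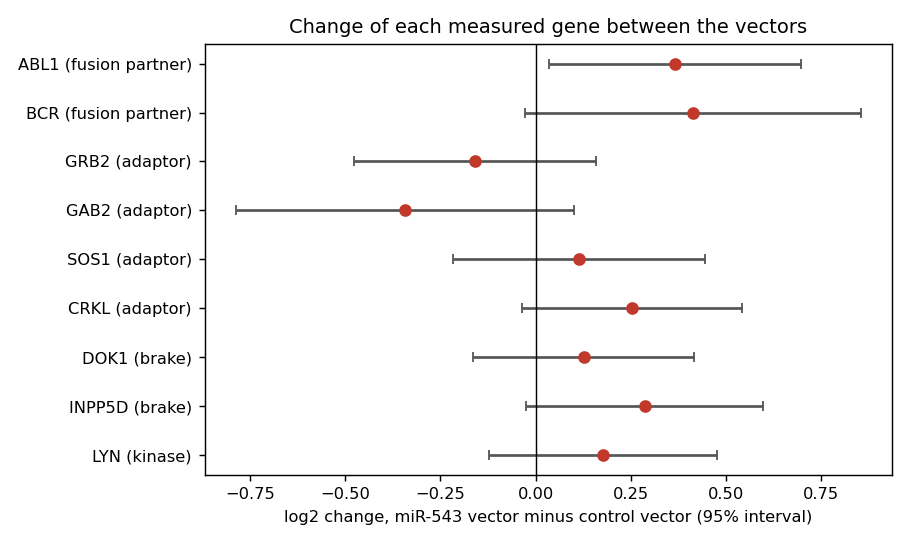
Log2 change of each measured gene, miR-543 vector minus control vector (x axis), with its 95% interval from limma over 3 arrays against 3, and the role of each gene in brackets. The interval of ABL1 starts at 0.035 and those of the other 8 genes include 0.

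Among the adaptors, GRB2 and GAB2 had the only negative changes. GRB2 (TC1700011749.hg.1, chromosome 17), whose SH2 domain reads the docking site on BCR, read 13.44, 13.52 and 13.18 on the control arrays and 13.21, 13.24 and 13.21 on the miR-543 arrays. The miR-543 arrays agreed to within 0.03 and lay inside the control range, just above control replicate 3. Its log2 change was -0.16 (SE 0.14, 95% interval -0.48 to 0.16, limma adjusted p = 0.757). It was -0.09 without control replicate 2 and -0.26 without control replicate 3.

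GAB2 (TC1100011744.hg.1, chromosome 11), the scaffold that GRB2 brings to the fusion, read 8.09, 7.74 and 7.79 on the control arrays and 7.46, 7.94 and 7.19 on the miR-543 arrays. The gap between its highest and lowest array was 0.35 with the control vector and 0.75 with the other, and miR-543 replicate 2 lay above 2 of the 3 control arrays. The difference was -0.34 log2 units (SE 0.20, 95% interval -0.79 to 0.10), or 0.788-fold, with a limma adjusted p of 0.594. It was -0.55 without miR-543 replicate 2 and -0.17 without miR-543 replicate 3.

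SOS1 (TC0200012307.hg.1, chromosome 2), the exchange factor that loads RAS with GTP, read 11.20, 11.17 and 11.51 on the control arrays and 11.52, 11.36 and 11.34 on the miR-543 arrays. The groups overlapped, with control replicate 3 above 2 of the 3 miR-543 arrays. Its log2 change was 0.11 (SE 0.15, 95% interval -0.22 to 0.45, limma adjusted p = 0.853). It was 0.067, 0.052 and 0.057 without control replicate 1, control replicate 2 or miR-543 replicate 1, and 0.222 without control replicate 3.

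CRKL (TC2200006681.hg.1, chromosome 22), an adaptor whose phosphorylation is used as a readout of BCR-ABL1 activity, had tight replicates. It read 15.45, 15.35 and 15.43 on the control arrays and 15.63, 15.69 and 15.67 on the miR-543 arrays, and the groups did not overlap. The difference was 0.25 log2 units (SE 0.13, 95% interval -0.035 to 0.54), or 1.19-fold. Its own SDs were 0.053 and 0.031 (n = 3), and limma, which draws each gene's variance towards that of all probe sets (prior SD 0.201), gave an adjusted p of 0.543. The exact permutation p was 0.1, again the smallest possible.

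Neither negative regulator was called. INPP5D (TC0200011121.hg.1, chromosome 2), also called SHIP1, removes a phosphate from the lipid that PI3 kinase makes. It read 8.08, 7.80 and 7.92 on the control arrays and 8.23, 8.29 and 8.14 on the miR-543 arrays, without overlap. The difference was 0.29 log2 units (SE 0.14, 95% interval -0.025 to 0.60), or 1.22-fold, with a limma adjusted p of 0.518.

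DOK1 (TC0200008092.hg.1, chromosome 2), a docking protein that recruits the GTPase activator of RAS, read 7.45, 7.53 and 7.55 on the control arrays and 7.60, 7.63 and 7.68 on the miR-543 arrays. Here too the groups did not overlap, by a gap between control replicate 3 and miR-543 replicate 1. The log2 change of DOK1 was the second smallest in size among the 9 at 0.13 (SE 0.13, 95% interval -0.16 to 0.42, limma adjusted p = 0.798).

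LYN (TC0800007688.hg.1, chromosome 8), a SRC family kinase that BCR-ABL1 activates and that can sustain survival of cells resistant to kinase inhibitors, read 12.12, 12.28 and 12.20 on the control arrays and 12.41, 12.44 and 12.28 on the miR-543 arrays. Control replicate 2 and miR-543 replicate 3 had the same value, so the groups touched. Its log2 change was 0.18 (SE 0.14, 95% interval -0.12 to 0.48, limma adjusted p = 0.707).

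The miR-543 arrays lay above the control arrays without overlap for 4 of the 9 genes (ABL1, CRKL, DOK1 and INPP5D) and below them for 0. Over all probe sets 15.4% did not overlap, 7.89% being higher and 7.50% lower. These 4 genes share their arrays, were listed with earlier results of these data known, and were not called, so the count is a description. The range from lowest to highest array was wider in the control group for 7 of the 9 genes, beside 50.2% of all probe sets. The two-sided exact permutation p was 0.1 for these 4 genes, 0.2 for LYN, 0.3 for BCR and GAB2 and 0.4 for GRB2 and SOS1. Over the 9 genes the 95% intervals reached from 0.580-fold (GAB2) to 1.81-fold (BCR), and changes within each gene's interval remain possible at this number of arrays.

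All 9 genes lay above the array median (5.99 to 6.01) on every array, and all but GAB2, DOK1 and INPP5D also lay above the upper quartile (9.61 to 9.66). As a check of the line, the 6 measured erythroid markers of K562, of 9 listed, lay above the array median on every array. Their mean log2 signal was 13.01 to 13.07 on the control arrays and 13.19 to 13.31 on the miR-543 arrays, 0 of the 6 were called, and their part in the values above was not tested. Of 5 lymphoid, 5 myelomonocytic, 6 epithelial and kidney and 5 stromal markers, 2, 2, 3 and 1 lay above the array median on every array, and 0 were called. The mean of the stromal markers, low as it was, also did not overlap between the groups, at 5.02 to 5.37 on the control arrays and 5.46 to 5.50 on the miR-543 arrays (median change 0.24, beside 0.21 for the erythroid markers), and its part was not tested either. The means of the other 3 lists overlapped.

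Close relatives of the members were set beside them, chosen by family after the values were known. ABL2, the other ABL kinase, had a log2 change of -0.12 (95% interval -0.53 to 0.30). GAB1 and GAB3 had -0.04 and 0.22, and SOS2 had -0.16 (95% interval -0.63 to 0.31). DOK2 and DOK3 had 0.27 and -0.003, and INPPL1, the other SHIP phosphatase, had 0.09. None of these 7 relatives was called, and whether a member changed differently from its relative was not tested.

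The wider signalling pathway was followed in 6 lists of genes compiled from general knowledge, which held 72 measured genes of 87 listed. Of the 72 genes 0 were called in either direction, beside 0.569% of all probe sets. At an unadjusted p under 0.05 there was 1 of 12 relatives and regulators of ABL kinases, 1 of 17 other adaptors, 0 of 8 SRC family and related kinases, 1 of 10 genes of the RAS to ERK cascade, 1 of 11 ERK output genes and 3 of 14 genes of the PI3K to AKT cascade, beside 10.6% of all probe sets. The limma adjusted p-values below are over all probe sets.

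Regulators of ABL kinases had 6 of 12 genes above 0 and a median of -0.002. The ubiquitin ligase CBLB had a log2 change of 0.39 (limma adjusted p = 0.436), CSK, which holds SRC kinases inactive, had 0.52 (0.487), and the phosphatase PTPN1, which can dephosphorylate BCR-ABL1, had 0.25 (0.557). Of the other adaptors and docking proteins 6 of 17 lay above 0 (median -0.05). GRAP, a blood cell relative of GRB2, had a log2 change of -0.41 (limma adjusted p = 0.466), IRS1 had -0.33 (0.519) and NEDD9 had -0.33 (0.572). With the control vector these 3 genes averaged only 3.46, 3.88 and 3.70, under the array medians, and whether they exceeded background was not tested. Among SRC family and related kinases 5 of 8 lay above 0 (median 0.10). The changes were 0.28 for SRC, 0.25 for FYN and -0.19 for BLK (limma adjusted p = 0.578, 0.681 and 0.711). BLK also averaged under the array medians, at 4.25 with the control vector.

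Downstream of GRB2 and SOS1, 3 of 10 genes of the RAS to ERK cascade lay above 0 (median -0.07). KSR1, a scaffold of RAF and MEK, had a log2 change of -0.49 (SE 0.17, limma adjusted p = 0.326), the ERK kinase gene MAPK3 had 0.28 (0.548) and MAP2K1, which encodes a MEK kinase, had -0.28 (0.569). Genes transcribed in response to ERK, which serve as a readout of the cascade, had 4 of 11 members above 0 (median -0.09). Only 8 of these 11 genes lay above the array median on every array. With the control vector DUSP4 and DUSP6 averaged 4.04 and 3.57, and whether they exceeded background was not tested. Among the ERK output genes SPRY4, a feedback inhibitor of RAS signalling, had -0.46 (SE 0.14, limma adjusted p = 0.280), the cyclin gene CCND1 had -0.34 (0.474) and PHLDA1 had 0.38 (0.499).

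Downstream of GAB2, the PI3K to AKT cascade had 11 of 14 genes above 0 and a median of 0.09, beside 52.3% and 0.01 over all probe sets. PIK3CD, the catalytic subunit of PI3 kinase found mainly in blood cells, had the highest change of the 6 lists. It read 7.24, 6.74 and 7.80 on the control arrays and 7.83, 8.44 and 8.27 on the miR-543 arrays, without overlap and with control replicate 3 close to miR-543 replicate 1. Its means of 7.26 ± 0.53 and 8.18 ± 0.31 (SD, n = 3) differed by 0.92 log2 units (SE 0.26, 95% interval 0.35 to 1.49) with a limma adjusted p of 0.230. TSC2, a brake on the growth kinase mTOR, had 0.55 (limma adjusted p = 0.280), and PDPK1, which phosphorylates AKT, had -0.54 (0.389).

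**Figure D3:**
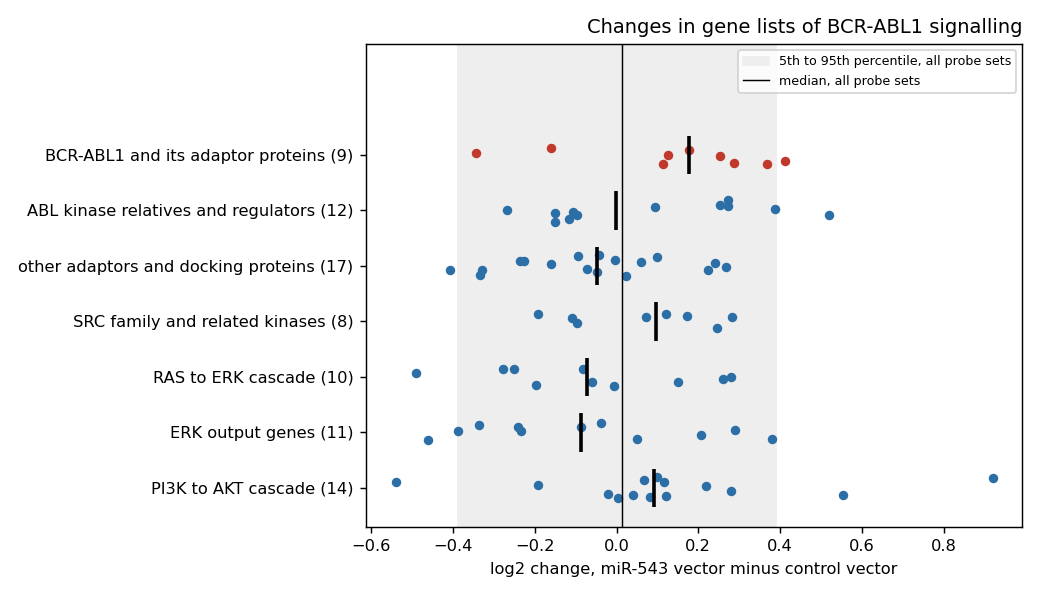
Log2 change, miR-543 vector minus control vector (x axis), of the 9 measured genes of the 10 members (red) and of every measured gene of 6 lists of the pathway (blue). The number measured is in brackets, and CRK has no value. Thick black lines are list medians, and the shaded band and thin line give the spread and median of all 21448 probe sets. PIK3CD, at 0.92, is the point farthest to the right, and 0 of the points were called.

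K562 carries extra copies of the segment that holds the fusion, so the neighbours of both partners were read as well, taking the 5 nearest measured protein-coding genes on each side in the order of the RefSeq gene table. Of these 20 genes 0 were called, 8 lay above 0, and the median was -0.018. On the sides joined in the fusion, after ABL1 and before BCR, 5 of 10 genes lay above 0 and the changes ran from -0.45 to 0.08. Only 3 of these 10 genes, and 7 of all 20, lay above the array median on every array. Whether the rest exceeded background was not tested. The neighbours named next were picked after the values were seen. NUP214, a nuclear pore protein, was the farthest of the 5 genes beyond ABL1. Its means were 13.63 ± 0.040 on the control arrays and 13.64 ± 0.026 on the miR-543 arrays (SD, n = 3). The vectors differed there by 0.013 (95% interval -0.27 to 0.30). QRFP, the nearest measured gene on that side of ABL1, had 0.05 at means of 9.62 and 9.67. EXOSC2, next to ABL1 on its other side, had 0.030. RAB36, next to BCR on the joined side, had -0.057 at means of 3.94 and 3.88, below the array medians.

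The smallest unadjusted p-values among the neighbours belonged to ASS1, an enzyme of arginine synthesis, with a log2 change of -0.50, to GGTLC2 with -0.45 and to VPREB3 with 0.22 (limma adjusted p = 0.328, 0.449 and 0.645). VPREB3 averaged only 3.11 on the control arrays and 3.33 on the miR-543 arrays, below the array medians. Probes of GGTLC2 may read near-identical gene copies, so the value of GGTLC2 is uncertain. Copy number was not measured, and the difference between ABL1 or BCR and the neighbours was not tested.

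**Figure D4:**
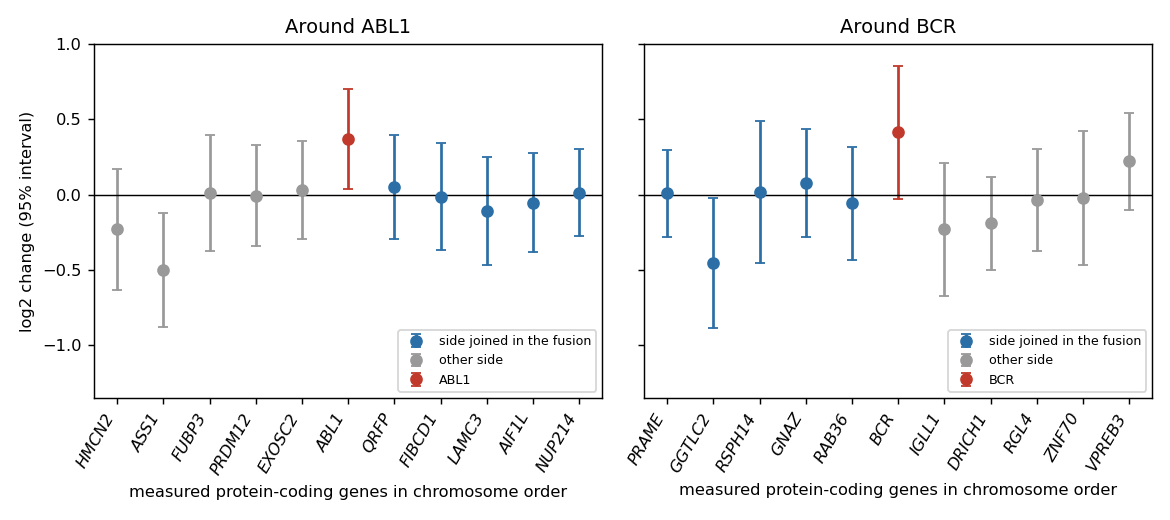
Log2 change, miR-543 vector minus control vector (y axis, 95% interval), of the 5 nearest measured protein-coding genes on each side of ABL1 (left) and BCR (right), in chromosome order and not to scale. ABL1 and BCR (red) stand at 0.37 and 0.41, and the 10 genes on the joined sides (blue) lie between -0.45 and 0.08. Of these 10 genes only 3 lay above the array median on every array.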

How the data were processed

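Labelled cDNA of each sample was read on an array of its own, 6 in all, with biotin as the only label. The authors deposited log2 signals per probe set, made with Transcriptome Analysis Console 4.0 and RMA per the submitters' processing notes; the RMA variant, annotation release and genome build are not given in the sources used here. The table held 21448 probe sets on all 6 arrays, 0 columns of other samples, and 0 pairs of identical arrays. Precision is limited by the number of arrays. Groups came from the sample titles. Symbols came from the platform annotation (17709 probe sets with 1 symbol, 0 with several) and were updated through the RefSeq gene table of GRCh38.p14.

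All probe sets were fitted with limma 3.58.1 in R 4.3.3 (lmFit and eBayes, no block, filter or weights), two-sided, with Benjamini-Hochberg adjustment over all probe sets and 95% intervals. The steps were tested on simulated data. The shifts added there were larger than the changes of the measured members, so that test does not show how often changes of their size would be called. The genes named by rule were the listed members and, of each pathway list and of the neighbours, any called gene (there were 0) and up to 3 with the smallest unadjusted p. The 7 relatives of members and the neighbours NUP214, QRFP, EXOSC2 and RAB36 were named outside that rule, after their values were seen. The members and lists were chosen with earlier results of these data known. A planned comparison of CRK with CRKL was not run, since CRK had no named probe set. Alternatives were 2 rescalings, a replicate block, trend and robust variance settings, a filter on dim probe sets and leaving out each array. Target sites in mRNAs were not analysed here.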

Additional observations from a re-analysis of the deposited data

How the results depend on the processing

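In all 11 alternatives 0 of the 9 measured genes, 0 genes of the 6 pathway lists and 0 of the neighbours of ABL1 and BCR were called by limma (at an unadjusted p under 0.05 in the reported fit, 1 of 9, 7 of 72 and 2 of 20), and each of the 9 genes kept the sign of its change. The change of ABL1 ran from 0.31 to 0.48 and that of BCR from 0.20 to 0.61 (limma adjusted p 0.236 to 0.774 and 0.329 to 0.868). The change of GAB2 ran from -0.55 to -0.17 and that of CRKL from 0.22 to 0.27 (0.432 to 0.879 and 0.169 to 0.775). With single arrays left out, ABL1 minus BCR ran from -0.295 (without control replicate 2) to 0.11 (without control replicate 1). The sign turned in the latter case and without control replicate 3 (0.045). For arrays with the same replicate number, deviations from the group means had correlations across probe sets of 0.095, -0.053 and 0.018. Of 3 control arrays 1 was closest to its own number. The labels do not say what a shared number stands for, and this check cannot decide it. With the replicate block ABL1 minus BCR stayed at -0.047 (exact sign permutation p = 1), and the block changed no call among the members, with a limma adjusted p of 0.459 for ABL1. Over all probe sets the count of calls was 122 in the reported fit, 71 with the replicate block, 252 with trend and robust settings and 34 to 59 without single arrays; the cause was not tested. Without single arrays the change of SOS1 ran from 0.052 to 0.222 and that of GRB2 from -0.26 to -0.09. List medians near 0 turned sign in some alternatives. Without miR-543 replicate 3 the medians of the RAS to ERK cascade, the ERK output genes and the other adaptors (-0.072, -0.087 and -0.047) were 0.032, 0.02 and 0.018. The ERK output median was 0.017 without control replicate 1, and that of the other adaptors 0.01 without control replicate 2. The median of the ABL relatives and regulators (-0.002) ran from -0.016 to 0.077 and that of the neighbours (-0.018) from -0.08 to 0.01. The medians of the PI3K to AKT cascade (0.024 to 0.107) and of the SRC family list (0.055 to 0.173) stayed above 0. No member had several probe sets, so averaging them changed nothing.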
